A study of Mus musculus with 38 samples.

Results

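H3K27ac peaks were compared between mouse epidermal stem cells (EpdSCs) without SOX9 and cells that had expressed it for 1 week. They come from 4 of the 38 samples of the series: 1 library of a high and 1 of a low micrococcal nuclease (MNase) digest at D0, and the same at W1. Each library combined 2 replicates, and the authors merged all of them into 1 peak list per time point, with 30268 peaks at D0 and 32544 at W1, together 62812 of the 540407 H3K27ac peaks and H3K4me1 domains listed for skin. Members were chosen by overlap alone. A peak was D0-only or W1-only when no peak of the other list shared at least 1 bp with it, and overlapped otherwise.

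All mice were males of genotype K14rtTA; TRE-myc-Sox9. The keratin 14 promoter drives the tetracycline-dependent activator in basal epidermal cells and in the outer root sheath of the hair follicle, and doxycycline (DOX) then switches on MYC-tagged SOX9 from the transgene. D0 mice had received no DOX, and W1 mice had received it for 1 week from postnatal day 21. Both groups carried both transgenes. Cells came from back skin and were sorted as negative for CD31, CD45, CD117, CD140a and CD34 and high for CD49f and Ly6A, which selects the basal stem cells of the interfollicular epidermis. MINT-ChIP is a chromatin immunoprecipitation in which the chromatin of several samples is barcoded and combined before the antibody is added.

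Acetylation of histone H3 at lysine 27 is laid down by the acetyltransferases CBP and EP300 and marks active promoters and active enhancers, while H3K4me1 marks enhancers whether active or only primed. SOX9 belongs to a family of factors that bind short DNA sequences through an HMG box. In the hair follicle it is required for stem cell identity, and the interfollicular epidermis does not normally express it.

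To show what such regions look like, 300-bp windows about the summit are given in the 5′ to 3′ direction of the plus strand of GRCm38 (the same coordinates as mm10) for 4 W1-only and 3 D0-only peaks. The windows were picked from the strongest peaks after their values were seen, and those of W1-only peaks all hold a SOX sequence. Of the 9 strongest W1-only peaks whose windows were read (Spink5 was left out), 7 held one and those in Runx2 and Spidr did not, and of the 10 strongest D0-only peaks 2 held one. These few windows do not stand for their classes. A SOX sequence was present in 37.0% of all W1-only and 31.5% of all D0-only windows. Over all peaks of each list it was present in 31.7% at W1 and 29.1% at D0. Capitals mark the SOX sequences ACAAAG and ACAATG, read on either strand. The first 4 are among the strongest W1-only peaks: an intergenic peak whose nearest start site is that of Rpf1, a peak in an intron of Zbtb20, one at the start of the noncoding gene 1700061I17Rik, and one in an exon inside the body of Creb1 whose nearest start site is that of Mettl21a. The last 3 are strong D0-only peaks: the promoter of Rab28, an intron of Rbms1, and an intergenic peak nearest to Gm25352. At Gm25352, 52.4% of the short words of sequence had further copies in the genome, against none at Rab28 and Rbms1. Reads cannot be placed there with certainty. Whether the Gm25352 peak reflects acetylation at this place was not tested.
Rpf1, W1-only, chr3:146534414-146534713: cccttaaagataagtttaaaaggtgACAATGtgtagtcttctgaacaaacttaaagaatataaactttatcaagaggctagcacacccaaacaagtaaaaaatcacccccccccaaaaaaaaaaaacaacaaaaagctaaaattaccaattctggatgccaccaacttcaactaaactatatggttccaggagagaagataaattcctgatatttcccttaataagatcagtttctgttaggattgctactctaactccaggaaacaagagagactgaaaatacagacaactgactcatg
Zbtb20, W1-only, chr16:43557584-43557883: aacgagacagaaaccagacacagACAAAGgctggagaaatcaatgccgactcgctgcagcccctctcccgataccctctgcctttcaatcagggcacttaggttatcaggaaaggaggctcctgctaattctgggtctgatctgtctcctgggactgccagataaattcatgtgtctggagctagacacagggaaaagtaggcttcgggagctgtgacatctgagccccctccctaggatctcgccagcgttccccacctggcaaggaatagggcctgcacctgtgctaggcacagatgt
1700061I17Rik, W1-only, chr3:117076497-117076796: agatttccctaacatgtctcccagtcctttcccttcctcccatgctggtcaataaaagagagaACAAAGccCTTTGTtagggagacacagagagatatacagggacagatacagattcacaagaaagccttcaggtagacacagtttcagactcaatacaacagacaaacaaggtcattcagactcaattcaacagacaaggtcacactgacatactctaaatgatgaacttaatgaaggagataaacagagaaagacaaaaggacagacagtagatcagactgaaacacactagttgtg
Mettl21a, W1-only, chr1:64601360-64601659: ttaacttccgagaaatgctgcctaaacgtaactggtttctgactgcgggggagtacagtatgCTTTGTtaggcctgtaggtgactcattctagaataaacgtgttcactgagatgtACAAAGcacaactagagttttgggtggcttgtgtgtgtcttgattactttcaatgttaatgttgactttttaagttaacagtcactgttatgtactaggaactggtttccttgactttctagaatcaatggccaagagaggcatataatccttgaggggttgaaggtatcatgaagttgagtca
Rab28, D0-only, chr5:41708153-41708452: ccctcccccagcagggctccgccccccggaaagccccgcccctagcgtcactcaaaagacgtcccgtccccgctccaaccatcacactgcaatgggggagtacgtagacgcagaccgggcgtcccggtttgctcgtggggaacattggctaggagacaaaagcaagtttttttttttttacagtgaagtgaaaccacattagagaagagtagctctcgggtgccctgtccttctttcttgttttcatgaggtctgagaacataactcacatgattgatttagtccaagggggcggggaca
Rbms1, D0-only, chr2:60901585-60901884: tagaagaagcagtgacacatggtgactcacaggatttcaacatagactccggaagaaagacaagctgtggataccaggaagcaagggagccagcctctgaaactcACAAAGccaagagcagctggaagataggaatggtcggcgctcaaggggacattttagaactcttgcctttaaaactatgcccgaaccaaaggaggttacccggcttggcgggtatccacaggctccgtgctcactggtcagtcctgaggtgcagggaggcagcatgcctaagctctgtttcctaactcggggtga
Gm25352, D0-only, chr3:5860503-5860802: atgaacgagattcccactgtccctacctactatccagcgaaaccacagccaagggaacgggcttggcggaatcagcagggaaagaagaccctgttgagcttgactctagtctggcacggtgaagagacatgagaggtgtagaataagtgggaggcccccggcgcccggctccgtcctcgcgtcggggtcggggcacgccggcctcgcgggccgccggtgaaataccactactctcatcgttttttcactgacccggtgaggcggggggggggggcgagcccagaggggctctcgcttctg
The W1-only windows at 1700061I17Rik and Mettl21a held 2 SOX sequences each, those at Rpf1, Zbtb20 and Rbms1 held 1, and those at Rab28 and Gm25352 held none. At 1700061I17Rik the 2 sequences lay on opposite strands, 2 bases apart.

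The sorted cell type was checked against its markers. At D0, peaks lay at Krt5 and Trp63, the keratin and the transcription factor of basal epidermal cells. No peak of either list lay within 10 kb of Vim, which mesenchymal cells express. In the marker lists, a gene had a peak when its start site was the nearest to one. Of 20 epidermal identity transcription factors 18 had a peak (not Gata3 and Prdm1). Of 8 basal and suprabasal keratins 7 had one (not Krt2). A gene without one can still hold peaks, as 4 D0 and 5 W1 peaks lay within 10 kb of Gata3. Of 14 immune markers, 3 had a peak nearest to them in either list (Cd3e, Cd52 and Cd8a, at most 1 peak each per list), and Ptprc, Spi1 and Cd207 had none. Of 10 melanocyte markers Dct and Mitf had a peak and Tyr, Pmel and Sox10 had none. Of 11 fibroblast markers 4 had a peak (Thy1, Pdpn, Dpt and Pdgfra), with Col1a1, Col1a2 and Dcn at 0. Thy1 had 3 D0-only peaks with pileups up to 12, and Pdpn 2 with pileups up to 14. Pdgfra, which encodes the CD140a used to exclude cells, had 1 W1-only peak with a pileup of 4 and no D0 peak. Of 10 endothelial markers 5 had a peak (Pecam1, Vwf, Erg, Tek and Flt1), among them Pecam1, which encodes the CD31 used to exclude endothelial cells, with 10 D0 and 9 W1 peaks, while Cdh5, Kdr and Tie1 had none. Of 10 sebaceous gland markers 4 had a peak (Scd1, Scd3, Plin2 and Fasn). The part of these other cell types in the results was not tested.

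Each list is 1 pooled measurement, so no spread between replicates could be computed and no comparison of D0 with W1 carries a test. The 95% interval after a share is the exact one of Clopper and Pearson and allows for counting error alone. In pooled cells, a region acetylated in more cells and a region acetylated more strongly in each cell cannot be told apart. Fold enrichment, which the peak caller gives as the summit pileup plus 1 over the local background plus 1, ran from 2.62 to 94.6 at D0 (median 6.0) and from 2.34 to 41.6 at W1 (median 5.39). It falls on even steps, from which whole pileups (the number of fragments over the summit) could be recovered.

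W1 was the shallower list. The genome-wide background pileup was 0.501 at D0 and 0.299 at W1, a ratio of 0.597. The smallest pileup in a peak was 4 at D0 and 3 at W1, the median was 8 against 6, and the largest was 178 against 102. Folds of the 2 lists are therefore not on one scale. Where peaks are compared between lists, the level is used instead, which is the summit pileup divided by the genome-wide background of its own list.

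Most of the unmatched peaks were small. Of the D0 peaks, 11333 or 37.4% (36.9 to 38.0%) had no overlap at W1, and of the W1 peaks, 13445 or 41.3% (40.8 to 41.9%) had none at D0. D0-only peaks had a median width of 414 bp, a median fold of 4.66 and a median pileup of 6, against 897 bp, 8.0 and 11 for the overlapped D0 peaks. W1-only peaks had a median width of 458 bp, a median fold of 3.85 and a median pileup of 4, against 882 bp, 6.16 and 7. Both unmatched classes were thus narrower and lower than the overlapped peaks of their own list. Together they covered little: 5.84 Mb of the 27.3 Mb of D0 peaks and 7.67 Mb of the 29.3 Mb of W1 peaks.

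Near misses were few. The median overlap of matched D0 peaks was 600 bp, and 211 of them overlapped by less than 50 bp, while 170 D0-only peaks missed a W1 peak by less than 50 bp. The numbers at W1 were 201 and 169. Still, 24.1% (23.3 to 24.9%) of D0-only and 22.2% (21.5 to 22.9%) of W1-only peaks lay within 1000 bp of a peak of the other list. That neighbour could itself be unmatched. The median gap was 5.50 kb for D0-only and 6.53 kb for W1-only peaks. Single wide peaks also faced several smaller ones: 1347 D0 peaks overlapped 2 or more W1 peaks (up to 11), and 1187 W1 peaks overlapped 2 or more D0 peaks (up to 6).

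The share without a counterpart fell with the level of the peak. Among D0 peaks it was 71.1% at a level under 10, 46.0% from 10 to 20, 16.0% from 20 to 30, 5.57% from 30 to 50 and 1.32% at 50 and over. Among W1 peaks it was 64.3% from 10 to 20, 30.8% from 20 to 30, 8.84% from 30 to 50 and 1.41% at 50 and over. At a level of 20 to 30, W1 peaks were unmatched nearly 2 times as often as D0 peaks, whereas from 50 upwards the shares were alike. A level of 20 corresponds to a pileup of about 10 at D0 and 6 at W1, so that levels in the W1 list rest on fewer fragments.

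**Figure D1:**
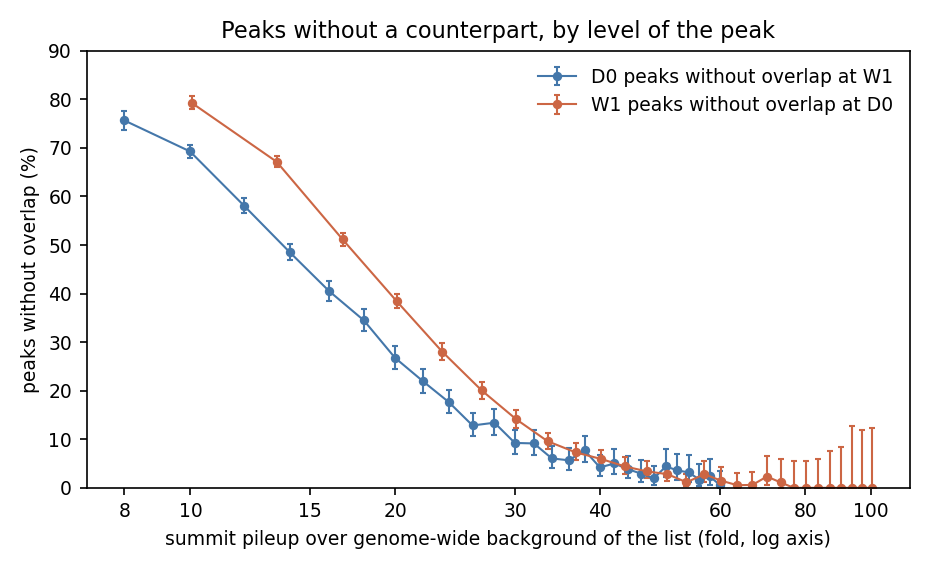
Percentage of peaks without overlap in the other list (vertical axis) against the summit pileup over the genome-wide background of the list (horizontal log axis), 1 point for each whole pileup; bars are exact 95% intervals. The share falls from 75.7% of D0 peaks at a pileup of 4 and 79.3% of W1 peaks at a pileup of 3 towards 0 in both lists, with the W1 points above the D0 points up to a level of about 30.

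At 30 times the background or more, which is a pileup of at least 16 at D0 and 9 at W1, 245 of 6761 D0 peaks were D0-only, or 3.62% (3.19 to 4.10%), and 529 of 7886 W1 peaks were W1-only, or 6.71% (6.17 to 7.28%). These are called strong peaks here. Among distal strong peaks, over 2500 bp from any annotated start site, the difference was larger. There 100 of 1517 D0 peaks (6.59%, 5.40 to 7.96%) and 397 of 2629 W1 peaks (15.1%, 13.7 to 16.5%) had no counterpart. At promoters, within 1000 bp of a start site, the order was the other way, with 132 of 5080 D0 peaks (2.60%, 2.18 to 3.07%) and 90 of 4955 W1 peaks (1.82%, 1.46 to 2.23%).

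Unmatched peaks lay away from promoters. Of the D0-only peaks 18.2% (17.5 to 19.0%) and of the W1-only peaks 13.1% (12.6 to 13.7%) lay at a promoter, against 48.0% and 49.1% of the overlapped peaks of each list. Introns held 49.8% of D0-only and 55.5% of W1-only peaks, and 28.3% and 27.8% were intergenic. Distal peaks made up 74.3% (73.5 to 75.1%) of D0-only, 78.0% (77.3 to 78.7%) of W1-only and 46.6% and 45.5% of overlapped peaks. The distal share of the D0-only peaks moved with level, and among strong peaks 40.8% of D0-only but 75% of W1-only peaks were distal.

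**Figure D2:**
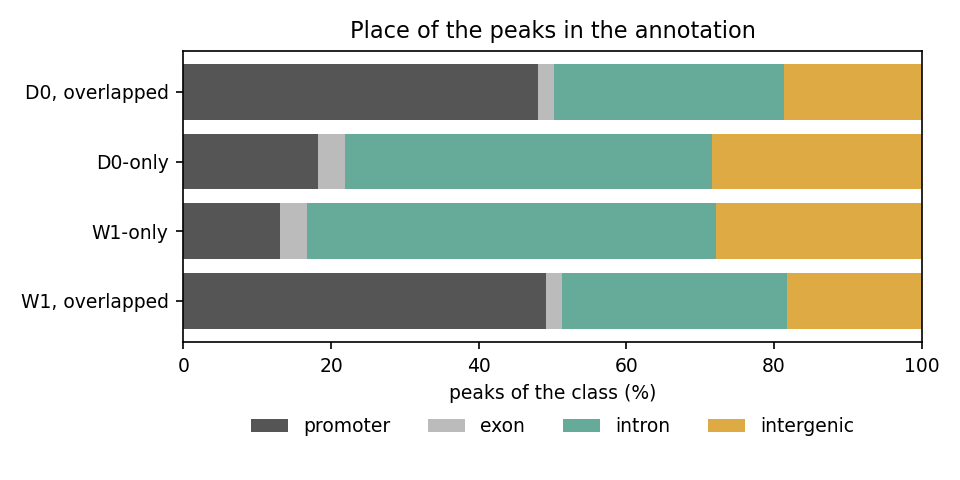
Share of peaks (horizontal axis, %) at promoters, in exons, in introns and between genes, for the D0-only and W1-only peaks and for the overlapped peaks of each list. Promoters hold 48.0% and 49.1% of the overlapped peaks but 18.2% of D0-only and 13.1% of W1-only peaks, and introns are the largest class of both unmatched groups.

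The promoters found in 1 list only were of an unlike kind. Windows of 300 bp at W1-only promoter peaks held a median of 7 CpG dinucleotides, those at D0-only promoter peaks 13, and those at overlapped promoter peaks 20 at D0 and 17 at W1. CpG-rich promoters are mostly those of broadly expressed genes. The nearest gene was protein coding at 76.0% of D0-only and 68.4% of W1-only promoter peaks, against 86.5% and 86.2% of the overlapped ones. Over all peaks, the windows had a mean GC content of 49.8% for D0-only and 47.6% for W1-only peaks, lower than the 54.5% and 53.6% of overlapped peaks.

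Most unmatched peaks lay in chromatin that carried H3K4me1 at both times. Of D0-only peaks 93.9% (93.5 to 94.3%) overlapped an H3K4me1 domain at D0 and 90.6% one at W1. Of W1-only peaks 92.7% (92.3 to 93.2%) overlapped a domain at W1, and 91.0% (90.5 to 91.5%) already did so at D0. The shares were higher for overlapped peaks. Of the overlapped D0 peaks 97.1% lay in a D0 domain and 95.8% in a W1 domain, and of the overlapped W1 peaks 96.6% and 95.1%. H3K4me1 domains are wide and many, covering 11.4% of the chromosomes at D0 and 9.67% at W1. The share of peaks in a domain called at W1 and not at D0 was 3.59% (3.28 to 3.92%) for W1-only against 0.75% (0.60 to 0.93%) for D0-only peaks, and 4.91% (3.24 to 7.12%) for strong W1-only peaks. Strong W1-only peaks lay in a D0 domain in 94.1% and in a W1 domain in 97.9% of cases, strong D0-only peaks in 87.3% and 81.2%. Strong overlapped D0 peaks did so in 96.5% and 94.4% of cases, and strong overlapped W1 peaks in 96.5% and 94.8%.

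The strongest W1-only peaks were wide and mostly distal. The top 10 by fold had pileups of 17 to 22, folds of 13.9 to 17.7 and widths of 803 to 2840 bp. First was a peak in an intron of Spink5 on chromosome 18 (pileup 22, fold 17.7), which encodes the protease inhibitor LEKTI of the upper epidermis and lies 155009 bp from any D0 peak. A pileup of 21 and a fold of 16.9 were reached by 3 peaks. These were the intergenic peak 12711 bp from the start of Rpf1 (chr3:146534140-146536175), the start of the noncoding Gm40117, whose nearest coding gene is the Wnt ligand Wnt2b, and an intron of Zbtb20 (chr16:43557235-43558857), a zinc-finger repressor.

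The next peaks by fold lay in the body of Runx2, a RUNX-family transcription factor (chr17:44587495-44588957, pileup 20), in that of Spidr, a DNA repair gene (19), in Slc39a14, a zinc transporter (18), at 1700061I17Rik (18), in Creb1, the cyclic AMP response factor (18), and near Lurap1l (17). Of the 10 peaks, 8 were distal, near the 78.0% of all W1-only peaks. All but the Zbtb20 peak lay in an H3K4me1 domain at D0, and all 10 in one at W1. They recurred in the later lists, where W2 overlapped 10 of 10, W6 9 and W12 8.

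The strongest D0-only peaks were narrower. The top 10 had pileups of 33 to 85 and folds of 22.7 to 52.3 but widths of only 302 to 916 bp, against a median of 897 bp for overlapped D0 peaks. The highest was chr1:195241571-195242003, near the noncoding Gm27940 (pileup 85, fold 52.3). The promoter of Rab28, a small GTPase (chr5:41708184-41708644, pileup 52, fold 35.3), an intergenic peak near CR555305.2 on chromosome 19 (75, 34.7) and an intron of Rbms1, an RNA-binding protein (chr2:60901594-60902509, 37, 25.3), came next. The others lay in Cdk8, near Atp6v1g3, Gm25352, Gm13353 and Fam43a, and in Filip1l. Of these 10 peaks 7 were distal, so that the place differed little from the 8 of 10 on the W1-only side.

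The strongest D0-only peaks were found again later. All 10 were overlapped at W6, 6 at W2 and 4 at W12. Some lay in sequence that occurs more than once in the genome, where short reads cannot be placed with certainty: 61.7% of the 32-base words of the Filip1l peak, 52.4% at Gm25352, 21.6% in Cdk8 and 20.1% at Gm27940 had further copies on the 21 chromosomes, against none at Rab28, Rbms1 and Fam43a. Among strong D0-only peaks, 16 of 245 (6.53%, 3.78 to 10.4%) were repeated in at least 50% of their words, against 0.737% of strong overlapped D0 peaks and 0.756% of strong W1-only peaks. Without those 16, 152 of 229 were found at W2 and 190 of 229 at W6.

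Promoter peaks found in 1 list only are listed by their strongest members. On the D0 side, after Gm27940 and Rab28, they were Saraf, a regulator of store-operated calcium entry (pileup 32), Ssbp2 (30), Pfdn1, a subunit of the prefoldin chaperone (29), Tsr1, a ribosome biogenesis factor (29), Pwwp2a (29), the kinase Abl2 (28), the poly(A) polymerase Papola (27) and Gm48894 (27). All 10 were overlapped at W6 and 7 at W2. The peaks at Papola, Tsr1 and Ssbp2 missed a W1 peak by 39, 339 and 434 bp. On the W1 side they were Gm40117 and 1700061I17Rik, then Dock9, an activator of CDC42 (17), Gm29340 (15), Ptprz1, a receptor tyrosine phosphatase (15), Moxd1 (14), Gm30918 (14), Gm49722 (13), Nhsl1 (13) and Gm26677 (13). Widths ran from 619 to 3142 bp, and 9 of 10 were overlapped at W2, 9 at W6 and 10 at W12.

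Whether unmatched peaks returned was read from the 3 later lists. The shares are those of unmatched peaks alone. They do not show whether such peaks are found later more or less often than other peaks of that level. W12 cells came from grafted skin, and the W12 libraries also name a W2 replicate in their labels. Of the 529 strong W1-only peaks, 467 (88.3%, 85.2 to 90.9%) were overlapped at W2, 430 (81.3%, 77.7 to 84.5%) at W6 and 262 (49.5%, 45.2 to 53.9%) at W12. Of the 245 strong D0-only peaks, 162 (66.1%, 59.8 to 72.0%) were overlapped at W2, 203 (82.9%, 77.5 to 87.4%) at W6 and 139 (56.7%, 50.3 to 63%) at W12. The W2 shares differed by more than their counting intervals, whereas those of the other lists did not. The 2 classes also differed in width. With peaks repeated in at least 50% of their words left out, the median was 1037 bp for strong W1-only and 786 bp for strong D0-only peaks. The part of width in a 1-bp overlap was not tested. Peaks found in no later list were few on both sides, 27 of the W1-only (5.10%) and 15 of the D0-only peaks (6.12%).

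Distal peaks showed the difference most. Of 397 strong distal W1-only peaks 88.2% (84.6 to 91.2%) were overlapped at W2, against 49.0% (38.9 to 59.2%) of 100 distal D0-only peaks, and at W6 79.1% (74.8 to 83.0%) were, against 74.0% (64.3 to 82.3%). At promoters they were 88.9% (80.5 to 94.5%) of 90 and 79.5% (71.7 to 86.1%) of 132 at W2. Weak peaks mostly did not return. Of D0-only peaks under a level of 10, 16.3% were overlapped at W2 and 68.2% at no later time, and of W1-only peaks from 10 to 20, 27.1% and 58.9%.

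**Figure D3:**
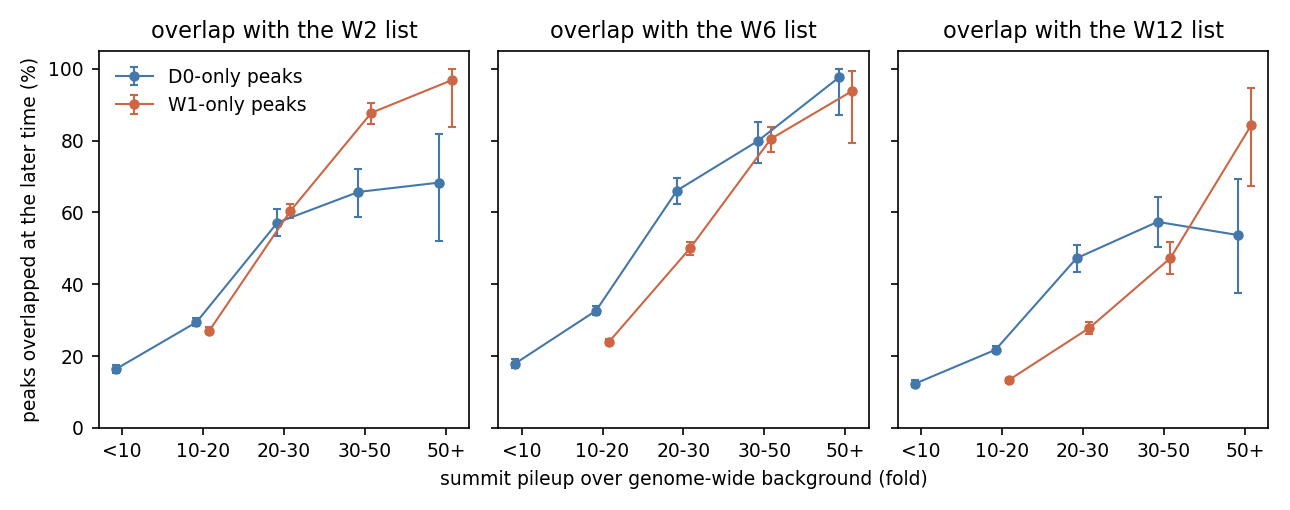
Percentage of D0-only and W1-only peaks overlapped by a peak of the W2, W6 or W12 list (vertical axis), by level of the peak (horizontal axis, summit pileup over genome-wide background); bars are exact 95% intervals. The share rises with level in all 3 panels, and at a level of 30 to 50 the W1-only peaks reach 87.7% at W2 against 65.7% of the D0-only peaks.

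Unmatched peaks were unevenly spread over genes. A peak was given to the gene with the nearest start site, and 18308 genes were nearest to a peak of either list. Of these, 41 had 10 or more W1-only peaks and 15 had 10 or more D0-only peaks. With 0 of the other kind, 92 genes had 5 or more W1-only peaks and 33 had 5 or more D0-only peaks. Long genes with many peaks have more chances of an unmatched one, so both kinds are given for each gene.

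Rad51b, a DNA repair gene with a very long body, had the most W1-only peaks. It had 27 of them against 1 D0-only peak, beside 24 overlapped D0 peaks, and 17 of the 27 were found at W2, 16 at W6 and 9 at W12. None of the 27 had a pileup above 9. Zbtb20 had 13 W1-only and 0 D0-only peaks, with pileups up to 21, of which 4 were found at W2. Osbpl3, a lipid-binding protein, had 13 against 1, with 6 found at W2 and 8 at both W6 and W12.

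The other genes rich in W1-only peaks had some of both kinds. Pard3, a cell polarity scaffold, had 17 W1-only and 6 D0-only peaks, Zbtb16, which encodes the repressor PLZF, 17 and 5, and 2610035D17Rik 17 and 5. Filip1l had 15 and 4, Moxd1 14 and 4, and Vav3, a guanine nucleotide exchange factor, 14 and 4. At Moxd1 and Filip1l 11 of the W1-only peaks of each were found at W2, whereas at Pard3, Zbtb16 and Vav3 it was 4 of each.

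The most D0-only peaks were found at Tiam1. This gene, which encodes an activator of the GTPase RAC1, had 22 D0-only against 7 W1-only peaks. Sipa1l3 had 18 against 9, Spred2, an inhibitor of RAS signalling, 15 against 7, Cmip 13 against 4, and Asap1 and Sh3pxd2a 13 against 7 and 9. Gm11986 had 11 against 0, and Gm15599 11 against 6. Of the 22 at Tiam1, 2 were found at W2 and 4 at W6. Rxra, the partner of many nuclear receptors, had 18 D0-only and 17 W1-only peaks and so stood in both lists, and Sept9, a septin, had 11 and 13.

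**Figure D4:**
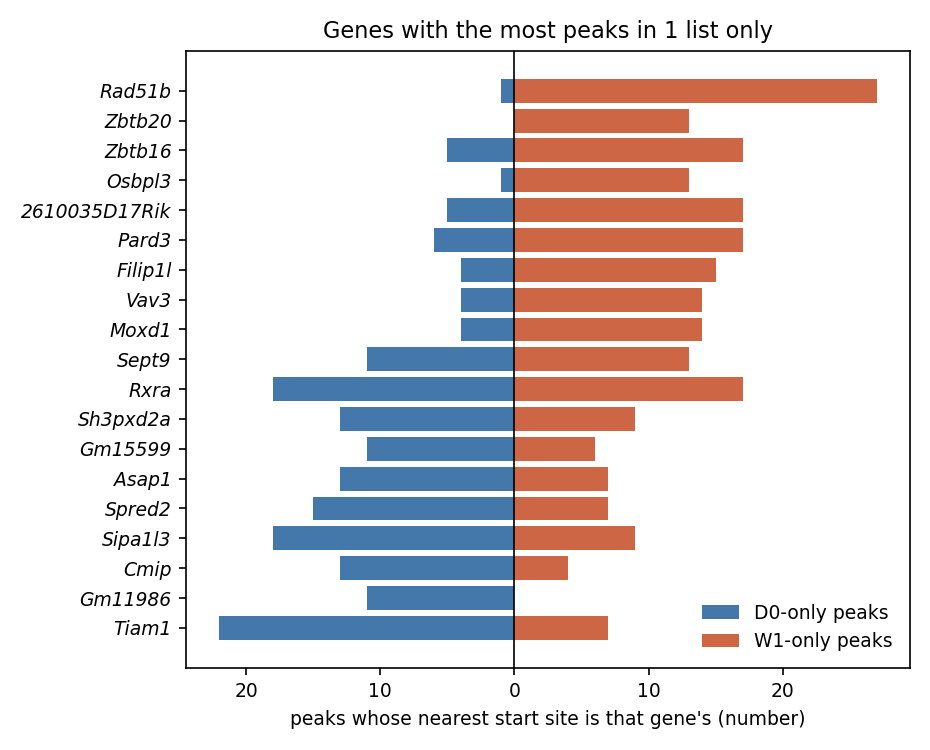
Number of D0-only (left) and W1-only (right) peaks for the genes with the most of either kind, by nearest start site. Rad51b reaches 27 to the right with 1 to the left, Tiam1 22 to the left with 7 to the right, and Rxra extends about equally to both sides.

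Gene groups were counted in the same way and read against the 37.4% of all D0 peaks and 41.3% of all W1 peaks that were unmatched. They hold few peaks each, and the counts are a description. Among 24 hair follicle stem cell and outer root sheath genes, 27 of 86 D0 peaks (31.4%) were D0-only and 42 of 91 W1 peaks (46.2%) were W1-only. More W1-only than D0-only peaks were found at 11 of the genes and fewer at 5. Lgr6, a receptor of R-spondins that marks stem cells of the upper follicle, was nearest to 9 W1-only peaks and to no D0 peak. Their pileups reached 8, and 1 of the 9 was found at W2. Lrig1, an inhibitor of EGF receptor signalling in the follicle isthmus, had 7 W1-only and 3 D0-only peaks. Lhx2, Lgr5, Cd34 and Tcf7l1 were nearest to no peak of either list, which does not exclude peaks closer to another start site.

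Col17a1, the hemidesmosomal collagen XVII of basal cells, went the other way with 11 D0-only and 1 W1-only peaks. All 11 lay in introns, with pileups of 4 to 8, and 4 of them were found at W2 and none at W6. The peak over its promoter was overlapped in both lists, with a level of 198 at D0 and 97.1 at W1. Over all 13 hemidesmosome and basement membrane genes, 25 of 72 D0 peaks (34.7%) were D0-only and 15 of 61 W1 peaks (24.6%) W1-only. Dst, another hemidesmosome component, had 4 and 2, and the laminin chain Lama5 3 and 3. Over 12 desmosome genes 17 of 48 (35.4%) and 11 of 46 (23.9%) were unmatched, with 3 and 3 at Dsc1, 2 and 3 at Dsc3 and 3 and 1 at Dsg1b, which encode desmosomal cadherins.

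Keratin genes gave few peaks. At the basal and suprabasal keratins 6 of 19 D0 and 6 of 18 W1 peaks were unmatched, with Krt77 at 3 D0-only and 0 W1-only, Krt80 at 2 and 3 and Krt15 at 1 and 1. Among stress keratins and alarm genes Krt6a was nearest to 3 W1-only peaks and to no D0 peak, and all 3 were also found at W2 and W6. Krt6a and Krt6b are close copies, and reads from their shared parts cannot be assigned with certainty. Krt16 had 2 D0-only and 0 W1-only, and Krt19 had 1 of each. At the epidermal differentiation genes the numbers were 17 of 35 D0 and 13 of 31 W1 peaks, including the lipid transporter Abca12 (3 and 5) and the transglutaminase Tgm3 (4 and 1).

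At 20 epidermal identity transcription factors, the unmatched share was below that of all peaks in both lists, with 24 of 88 D0 peaks (27.3%) and 26 of 97 W1 peaks (26.8%). Trp63 had 8 D0-only and 9 W1-only peaks, Grhl1 5 and 5 and Tfap2c 4 and 4. Counted within 10 kb of the Trp63 gene instead, 4 peaks were D0-only and 11 W1-only. Among the 10 AP1 genes 8 of 30 and 4 of 28 were unmatched, with Fos at 2 and 2, Fosl2 at 2 and 1 and Atf3 at 1 and 0. SOX genes had 13 of 21 and 12 of 20, with Sox6 at 6 and 9. At 15 housekeeping genes, 6 of 26 D0 peaks and 0 of 22 W1 peaks were unmatched, and 4 of the D0-only peaks belonged to Ywhaz.

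Signalling pathways had members on both sides. Wnt pathway genes had 48 of 107 D0 peaks D0-only (44.9%) and 46 of 110 W1 peaks W1-only (41.8%). The Wnt ligand Wnt7b had 6 and 1, the receptor-degrading ligase Znrf3 2 and 7, and the secreted Dkk3 2 and 6. BMP and TGF-beta pathway genes had 46 of 109 (42.2%) and 40 of 102 (39.2%). There the receptor Tgfbr2 had 6 and 1, the ligase Smurf2, which targets receptors and SMADs, 0 and 6, and the SMAD inhibitor Ski 7 and 6.

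EGF receptor pathway genes had 21 of 65 (32.3%) and 21 of 55 (38.2%). The ligand Epgn had 8 D0-only and 2 W1-only peaks. Its promoter peak (pileup 14 at D0) was among the D0-only ones and was not found at W2, W6 or W12. Egfr itself had 5 and 2. Hedgehog pathway genes had 13 of 24 and 15 of 26, with the transcription factors Gli2 at 3 and 4 and Gli3 at 2 and 4 and the coreceptor Cdon at 2 and 3. Notch pathway genes had 11 of 41 and 14 of 42, with the ligand Jag1 at 4 and 4, the coactivator Maml2 at 0 and 4 and Notch1 at 1 and 3.

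The remaining groups were smaller or less one-sided. Cell cycle genes had 12 of 35 and 15 of 39, with the inhibitor Cdkn1b at 0 D0-only and 3 W1-only peaks and cyclin D1 (Ccnd1) at 3 and 1. Genes of basal cell carcinoma and epithelial-mesenchymal transition had 7 of 31 and 9 of 29, and those of SWI/SNF, MLL and histone acetyltransferase complexes 13 of 40 and 10 of 39, with Arid1b at 5 and 2. Of the other cell types, sebaceous gland markers had 3 of 10 and 7 of 14, with Scd3 at 0 and 3, endothelial markers 5 of 14 and 10 of 20, with Vwf at 1 and 4 and Tek at 0 and 3, fibroblast markers 5 of 7 and 3 of 5, with Thy1 at 3 and 0, melanocyte markers 0 of 2 and 2 of 4, and immune markers 2 of 2 and 1 of 2.

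Runx1, a transcription factor of hair follicle stem cells, had the largest rise in the number of peaks among the 7 loci examined one by one. Its gene (chr16:92601466-92826149, minus strand) with 10 kb on either side held 5 D0 peaks and 16 W1 peaks, covering 5805 and 16961 bp. Of the W1 peaks 11 were W1-only, against 1 D0-only peak. All 11 lay in an H3K4me1 domain at D0 and at W1, and 9 were found at W2, 8 at W6 and 5 at W12. Among them chr16:92627741-92630801 was the strongest, 3061 bp wide, with a pileup of 10. The promoter peak was present in both lists (highest level 47.9 at D0 and 56.9 at W1). The noncoding Gm26626 overlaps this gene, and 9 of the W1-only peaks were nearest to its start site, so that the nearest-gene counts alone give Runx1 only 2.

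**Figure D5:**
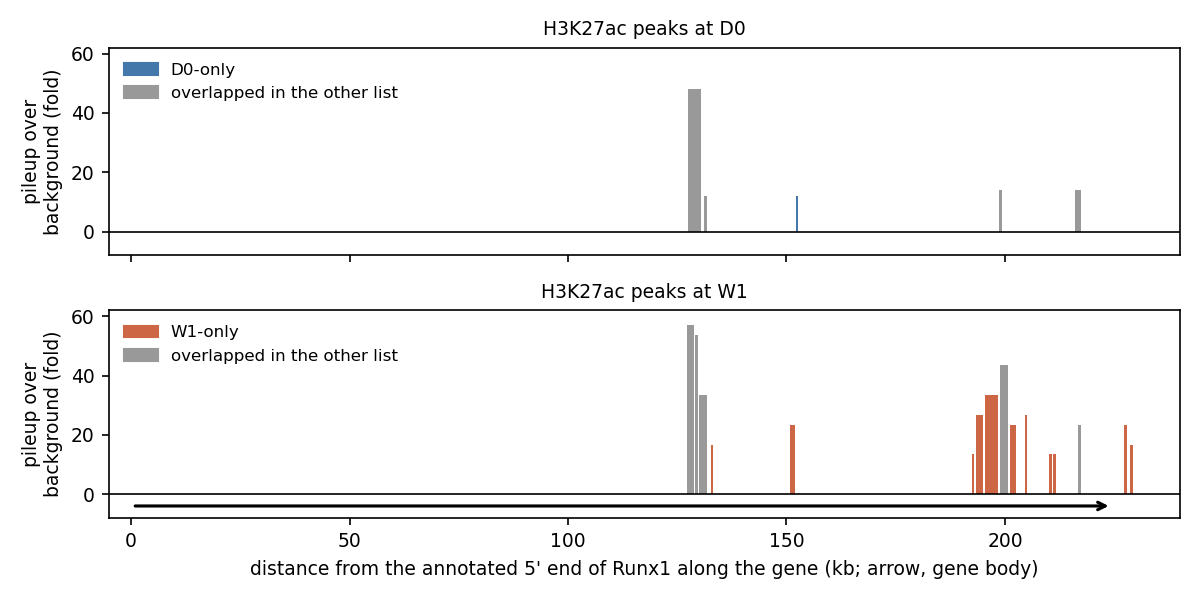
H3K27ac peaks at Runx1 with 10 kb on either side at D0 (top) and W1 (bottom); the horizontal axis is the distance from the annotated 5′ end along the gene in kb, the vertical axis the summit pileup over the genome-wide background of the list, and the arrow the gene body. W1 shows 11 W1-only peaks, most of them in the 3′ part of the gene, where D0 has 2 overlapped peaks.

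At Sox9 itself, 3 D0 peaks faced 1 W1 peak. The D0 peak over the promoter (chr11:112781205-112784387) had a pileup of 21 and the W1 peak (chr11:112782295-112785503) one of 36 with a fold of 28.5, or levels of 41.9 and 120. The W1 peak lay within the gene, and the transgene carries the Sox9 coding sequence, so that acetylation of the endogenous gene and of the transgene cannot be told apart there. Within 1 Mb on either side, 18 of 41 D0 peaks (43.9%) and 33 of 56 W1 peaks (58.9%) were unmatched. The W1-only peaks of that region had a median pileup of 5 and a highest of 10, and 10 of the 33 were found at W2.

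Krt5 kept its peak. It had 3 D0 peaks, all overlapped, and 7 W1 peaks, 3 of them W1-only. The D0 peak over the gene (7994 bp wide) had a level of 53.9 and its W1 counterpart (5786 bp) one of 40.2. Gata3, an epidermal transcription factor, had 4 D0 peaks (1 D0-only) and 5 W1 peaks (2 W1-only). The wide peak over its promoter spanned 19993 bp at D0 and 19781 bp at W1, with levels of 73.9 and 77.0 that differed little. Trp63 had 17 D0 peaks (4 D0-only) and 21 W1 peaks (11 W1-only), with highest levels of 57.9 and 50.2. Ctnnb1, the Wnt effector beta-catenin, had 5 (1) and 7 (3), with highest levels of 40.0 and 40.2.

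The height of shared peaks was compared over 17738 overlapping pairs with a recovered pileup in both lists. On the level scale, the median log2 ratio of W1 to D0 was 0.01 (quartiles -0.48 and 0.48), and 49.4% of pairs lay above that median, the rest being at or below it. Promoter pairs had a median of -0.24 and 36.1% (35.1 to 37.2%) of them lay above the median of all pairs, while distal pairs had a median of 0.26 and 62.5% (61.4 to 63.5%). Ratios fell with level in both kinds. At a mean level of 20 to 30 the medians were -0.03 at promoters and 0.23 at distal sites, at 30 to 50 they were -0.26 and 0.07, and at 50 and over -0.51 and -0.36. Distal pairs thus stood above promoter pairs in each of these ranges, by less than over all levels. With fold ranked within each list instead, 43.5% of promoter pairs rose.

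Of the 10 largest rises, 8 were away from promoters. Rises and falls were ranked among pairs in the upper part of either list. Of all 17738 pairs, 8758 were at promoters. At Gm48236 on chromosome 12 the pileup went from 4 to 19 (log2 ratio of levels 2.99), at 4732490B19Rik (chr11:113285200-113286343), inside the 1-Mb flank of Sox9, from 5 to 23 (2.95), and at Gm14006 from 6 to 24 (2.74). Rnf43, a Wnt target gene that encodes a ligase for Wnt receptors, had the strongest rise at a coding promoter, from 4 to 16 (2.74). The others were near Gm24323, Gm37737, Ppp1r14c (7 to 26), AC127256.2, AC122818.2 and in Nhsl1. Widths of these peaks were 328 to 1026 bp at D0 and 967 to 3201 bp at W1. Their D0 pileups were 4 to 7, near the smallest of that list, which was 4. The paired summits of these rises lay 0 (Rnf43) to 1177 bp (Ppp1r14c) apart, so that different places can be compared here too.

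Of the 10 largest falls, 7 were at promoters, where 8758 of all 17738 pairs lay. At Tpd52l2 the pileup went from 72 to 5 (log2 ratio of levels -3.10), at Cast, which encodes calpastatin, from 71 to 5 (-3.08), at Tcp1, a chaperonin subunit, from 50 to 4 (-2.90) and at Map7d1, a microtubule-associated protein, from 59 to 5 (-2.82). Rabl3 (97 to 10), Atp8a1 (46 to 5) and the ribosomal protein gene Rplp0 (36 to 4) were further promoters. The falls away from promoters were at Gm49225 (84 to 8), near Bmp3 (30 to 3), a BMP family ligand, and in Slc16a9 (45 to 5). The W1 pileups of the 10 falls were 3 to 10, and the smallest of that shallower list was 3. The paired summits of these falls lay 13 (Rabl3) to 4295 bp (Gm49225) apart, against a median of 142 bp over all pairs, and those of Tpd52l2, Cast and Rplp0 1037, 936 and 1134 bp apart, so that different places of a wide D0 peak can be compared.

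Short sequences of transcription factor families were counted on both strands in the 300-bp windows, as a description. Either SOX sequence, ACAAAG or ACAATG, was present in 38.5% (37.6 to 39.5%) of distal W1-only windows, 33.6% (32.6 to 34.6%) of distal D0-only windows and 34.9% (33.9 to 35.9%) of distal overlapped D0 windows. It was present in 28.6% of RefSeq promoters of the same length. Of all peaks at a level of 20 and over, 19.4% at W1 and 8.43% at D0 were unmatched, and among their distal members either sequence was present in 39.7% (37.8 to 41.7%) of 2492 W1-only and 28.4% (24.3 to 32.7%) of 455 D0-only windows. The overlapped distal windows of that level gave 35.6% (34.3 to 36.9%) at W1 and 32.2% (30.6 to 33.9%) at D0. Among strong distal peaks the intervals overlapped, with 41.6% (36.7 to 46.6%) of W1-only and 32% (23.0 to 42.1%) of D0-only windows, and in the central 100 bp the order turned, with 11.3% and 14%. At a level of 20 and over ACAAAG alone gave 28.9% and 19.3% of the W1-only and D0-only windows, and ACAATG alone 15.6% and 12.1%. The mean GC content of that level moved with these shares, at 46.9% for W1-only and 49.0% for D0-only windows, and its part was not tested.

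The other sequences were counted in the same windows. In distal W1-only, distal D0-only and distal overlapped D0 windows, the RUNX core TGTGGT was present in 22.0%, 22.3% and 22.0% (16.8% of RefSeq promoters), the AP1 core TGANTCA in 10.9%, 11.3% and 11.1% (7.81%), and the GATA core AGATAA in 16.3%, 14.9% and 14% (11.2%). The TEAD core GGAATG was in 16.1%, 17.2% and 17.0% (14.7%) and the E-box CAGCTG in 16.8%, 17.4% and 17.5% (16.3%). The GC-rich sequences went with the GC content: the KLF core CACCC was in 49.6%, 52.7% and 55.1% (57.5%), the GC box GGGCGG in 4.51%, 5.26% and 7.44% (35.7%) and the ETS core CCGGAA in 3.75%, 3.88% and 4.82% (14.9%). At promoter peaks the GC box was in 21% of W1-only and 35.4% of D0-only windows. A palindromic p63 element was matched in 3 windows and a palindromic NFI element in 5 or 7 windows of each distal unmatched class.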

How the data were processed

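MINT-ChIP lists of H3K27ac at D0 and W1 were compared, with the H3K27ac lists of W2, W6 and W12 and the H3K4me1 domains of skin as further readouts. Labels gave the groups. Per the study's methods, the authors split reads by barcode, trimmed them, aligned them to mm10 (GRCm38) with Bowtie2, removed duplicates with Picard, merged replicates and called H3K27ac peaks with MACS2. The submitters' processing notes name Bowtie2 2.2.9, SAMtools 1.9, MACS2 2.1.1, SICER 0.0.36 and deepTools 2.5.4. Caller settings and controls were not given in the sources used here. Read lengths differ between the labels and the study's methods. Each peak in the authors' H3K27ac lists has a score in whole numbers, a fold (the summit over its local background, a ratio), and p and q as −log10, with a largest q-value of 0.0437 at D0 and 0.0498 at W1. The deposited H3K4me1 lists hold a p-value per domain, of which only positions were used. Barcode files and total H3 were not used here.

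Peaks on 21 chromosomes were used, and 2 mitochondrial peaks of each list were set aside. Whole pileups were recovered from fold at 95.9% of D0 and 94.3% of W1 peaks, within 0.002 of a whole number and 0.05 of the Poisson −log10 p, and from the local background elsewhere. Depth per library was not used here. Distances ran to 77221 start sites of 55413 genes of the GENCODE M21 basic set. Promoter meant within 1000 bp and distal over 2500 bp. Windows of 300 bp were read from the GRCm38 genome of RefSeq and searched on both strands for 12 sequences. Scripts were run in Python 3.11.15 with numpy 2.4.6, pandas 2.3.3, scipy 1.17.1 and matplotlib 3.10.9, and the steps were tested on simulated data.

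Named genes were the 10 peaks of highest fold in each unmatched class, overall and at promoters, the 10 genes with the most unmatched peaks of each kind, the 10 pairs with the largest and the smallest ratio among those in the upper part of either list, 7 loci named by the study, and the 3 members of each of 24 gene lists with the most unmatched peaks of 1 kind. Of 377 list symbols 376 matched the annotation. Genes named because they had no peak, and the single peaks of Epgn and Col17a1 that are described, were chosen after their values were seen. The rule, the members and the lists were chosen with earlier results of these data known. Alternatives concerned the overlap required, the score, q, length and floor of the lists, joining of peaks, the distance that counts as distal and the ranking of fold.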

Additional observations from a re-analysis of the deposited data

How the results depend on the processing

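Each list is a single pooled measurement, so that no result carries a test and a change of direction could not be judged beyond counting error. No paired analysis was possible because the replicates were merged before peaks were called. Of the alternatives, 14 values moved by less than their limit (a factor of 1.5 for counts, the 95% interval for shares) and 31 moved by more. W1-only peaks outnumbered D0-only peaks in the main comparison (13445 against 11333), but this order turned with lists of equal length (11539 against 11635) and for peaks past the median score in both lists (3484 against 4982), and it was nearly even at a q of 0.01 (10712 against 10498). With peaks above the larger of the lowest levels in both lists, D0-only peaks numbered 6935 and W1-only peaks 14916. Strong peaks, an alternative chosen after seeing the data, numbered 245 and 529.

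The distal share of D0-only peaks, 74.3%, was 81.8% with distal set at over 1000 bp, 48.5% at over 10 kb, 51.3% above the median score, 76.7% with peaks under 1000 bp apart joined and 40.8% among strong peaks. That of W1-only peaks, 78.0%, was 86.9%, 52.0%, 71.6%, 80.2% and 75% in the same order, and 76.8% when an overlap of 50% of the shorter peak was required. The share of D0-only peaks in D0 H3K4me1 domains was 92.1% when 50% of the peak had to lie in the domain and 95.4% above the median score, and that of W1-only peaks in W1 domains 91.9% and 98.2%. Promoter pairs above the median of all pairs came to 43.5% with fold ranked within lists and to 44.5% at a mean level of 20 to 30, a range chosen after seeing the data. Depth limits the W1 list most, where a peak can rest on a pileup of 3, so that a weak D0 peak missing there may lie below what that list could show.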

Other observations

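By chromosome, the unmatched share of D0 peaks lay between 33.9% (chromosome 6) and 40.0% (chromosome 15) on the autosomes and was 36.9% on X. On Y, 16 of 20 D0 peaks (exact 95% interval of the share 56.3 to 94.3%) and 1 of 5 W1 peaks were unmatched, although all mice of both groups were males by their labels. Among W1 peaks the autosomes ran from 34.0% (chromosome 17) to 45.5% (chromosome 1).

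A few genes outside the naming rule had unmatched peaks of 1 kind only and were picked after their values were seen. 1700028E10Rik had 12 W1-only and 0 D0-only peaks, 10 of them found at W2, 3 at W6 and 1 at W12. Adgra3, an adhesion G protein-coupled receptor, had 10 W1-only and 0 D0-only peaks, of which 6 were found at W2. On the other side, Adamts14, a metalloprotease that processes procollagen, was nearest to 8 D0-only peaks and to no W1 peak. None of the 8 was found at W2 or W6 and 1 at W12. Bcor, a subunit of a Polycomb complex, had 6 D0-only and 0 W1-only peaks.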
